A study of Mus musculus with 30 samples.

Results

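The 37 genes described here carry long-chain fatty acids into heart muscle cells and burn them there. They were taken by symbol from a list of pathway genes, and all 37 were found, 1 row each, in a deposited table of 13575 genes. RNA was sequenced in 6 libraries from hearts of 2-month-old mice, without atria, taken at ZT10 (zeitgeber time, counted in hours from lights on). The control libraries (n = 3, titled RevFloxed_Control) carried floxed alleles of both REV-ERB genes, Nr1d1 (Rev-erba) and Nr1d2 (Rev-erbb). The CM-RevDKO libraries (n = 3) were labelled as the cardiomyocyte double knockout; for the ChIP samples of the same series the protocol names aMHC-Cre, Cre under the cardiomyocyte alpha myosin heavy chain promoter, present against absent on the floxed background. If that holds for the RNA samples too, effects of Cre itself and of receptor loss cannot be told apart. The sex of these mice, and whether each library is a separate animal, are not given; every p-value here reflects spread among libraries alone, which may be technical. The other 24 of the 30 samples of the series, from ChIP and Cut&Run, were not analysed here.

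The adult heart draws most of its ATP from fatty acids. Lipoprotein lipase frees them from circulating triglyceride, CD36 and fatty acid transport proteins take them across the membrane, and acyl-CoA synthetase traps them as acyl-CoA. The carnitine shuttle then carries the acyl group into mitochondria, where repeated rounds of beta oxidation cut off acetyl-CoA and hand electrons to the respiratory chain; peroxisomes shorten the longest chains. REV-ERBα and REV-ERBβ are nuclear receptors of the circadian clock that repress genes through ROR elements, and the series addresses what they do in heart metabolism.

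The deposited values were read as FPKM, which scales fragments by library size and by transcript length, so levels may be compared between genes. Differences are CM-RevDKO minus control on the log2(FPKM + 1) scale, from limma fitted to 13256 genes, with the standard error (SE), a 95% interval and a p-value adjusted by Benjamini-Hochberg over all 13256 genes; a gene passed the test at an adjusted p under 0.05. Sequencing depth is unknown. A level of 1 FPKM was reached by 11967 to 12395 genes per library. The tissue carried cardiomyocyte transcripts, and 8 of 8 cardiomyocyte markers were measured. Their summed level was 25623 to 27821 FPKM in the control libraries and 25703 to 28909 FPKM in the others. Single markers differed within that sum. Mybpc3 alone of the 8 passed the test (higher), and limma gave 2 lower and 3 higher at an unadjusted p under 0.05. The target transcripts did not check the labels. Total Nr1d1 was higher in the libraries labelled CM-RevDKO (means of 20.5 and 50.3 FPKM) and Nr1d2 stood at 35.7 and 27.4 FPKM (adjusted p = 0.0124 and 0.175), and values over whole genes say nothing of a deleted part. Arntl, the clock activator gene repressed by REV-ERB, was at 0.0831 to 0.295 FPKM in the control libraries and at 12.5 to 13.0 FPKM in the others. Every direction below rests on the labels. In heart tissue a lower value may mean fewer cells of a type or less RNA per cell, and these cannot be told apart.

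In the libraries labelled CM-RevDKO 3 of the 37 genes fell (8.11%) and 0 rose past the test; of all genes tested 2.5% passed, 1.24% lower and 1.26% higher. In limma, 16 were lower and 0 higher at an unadjusted p under 0.05, against 7.23% and 9.41% of all genes. The log2 fold change lay below 0 for 33 of the 37 (89.2%), against 46.3% of all genes. The groups did not overlap for 17 genes in the lower direction (45.9%, against 10.5% of all genes) and for 3 in the higher (8.11%, against 12.6%). The median log2 fold change was -0.25 over the 37 genes and 0.018 over all genes tested, and the 37 ranged from -1.14 (Ucp3) to 0.22 (Etfa). The 3 genes that fell were Ech1, Slc22a5 and Cd36. Leaving out 1 library gave 0 lower genes without control replicate 1 or 3 (limma; 12 and 15 at an unadjusted p under 0.05), 1 without control replicate 2 or CM-RevDKO replicate 2 or 3, and 3 without CM-RevDKO replicate 1. With the adipocyte marker level as a covariate the count was also 0 (limma, 18 at an unadjusted p under 0.05). Of all genes that fit called 0.355% lower, against 1.24% without the covariate. The median log2 fold change of the 37 genes in it was -0.32.

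**Figure D1:**
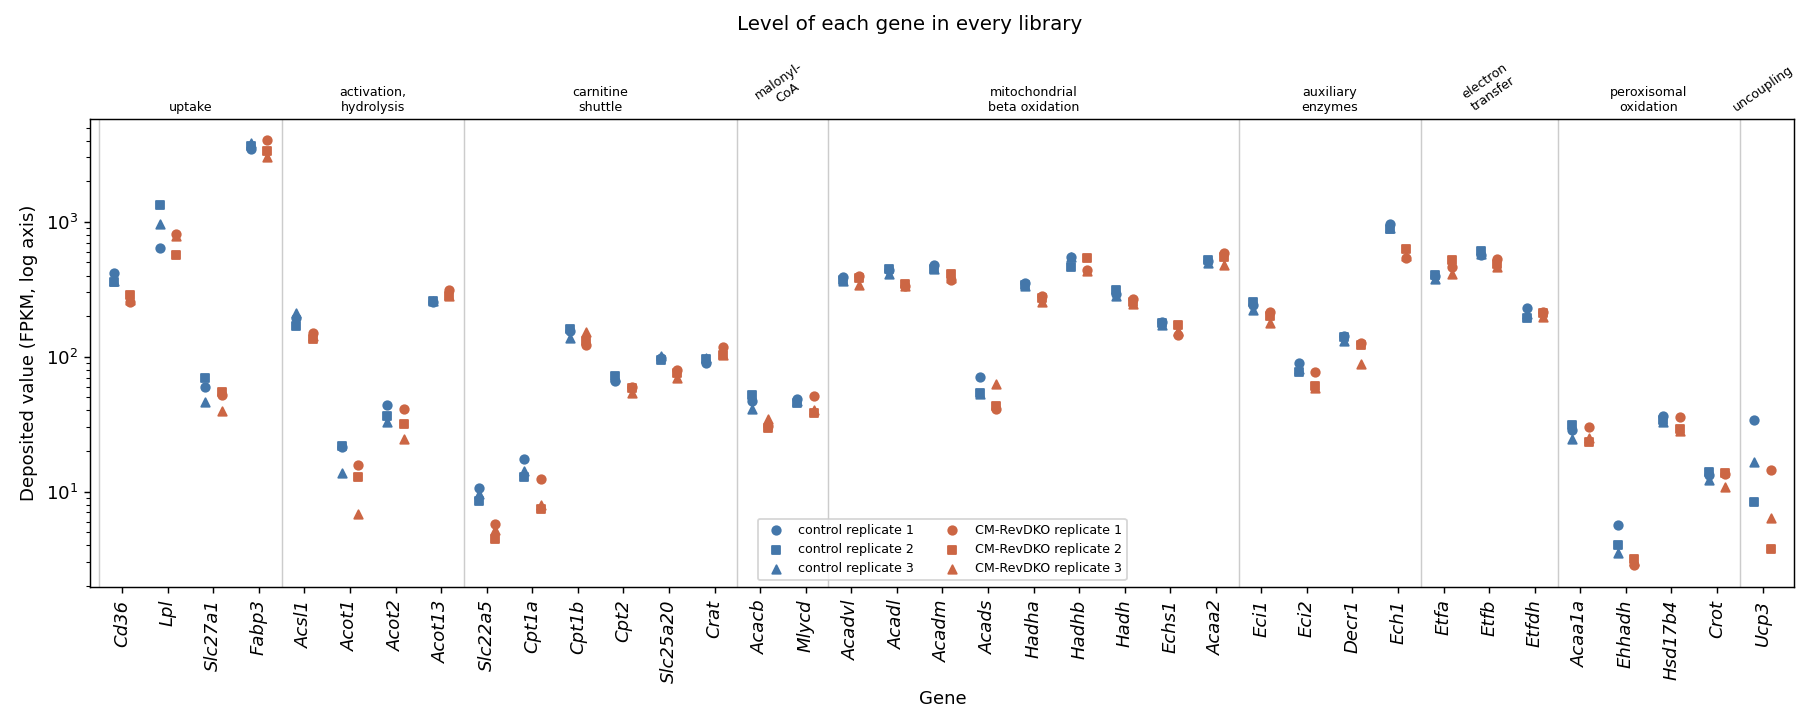
FPKM (log axis) of each of the 37 genes in the 3 control (blue) and 3 CM-RevDKO (orange) libraries, grouped by step; marker shapes are replicates 1 to 3. Fabp3 is the most abundant and Ehhadh the least. Blue and orange points do not overlap for 17 genes lower in CM-RevDKO and 3 higher (10.5% and 12.6% of all genes). Ech1, Slc22a5 and Cd36 are among the 17.

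Ech1 encodes a dienoyl-CoA isomerase that moves double bonds so that polyunsaturated chains can be oxidised (ENSMUSG00000053898, chromosome 7, 28825338 to 28832239, mm10). Its level was 961, 888 and 896 FPKM in control replicates 1 to 3, and 541, 634 and 556 FPKM in CM-RevDKO replicates 1 to 3. All 3 control libraries lay well above all 3 of the other group. Ech1 fell by 36.9% in mean FPKM, a log2 fold change of -0.67 (SE 0.09, 95% interval -0.88 to -0.45, adjusted p = 0.0138). By mean level it is the third most abundant of the 37 genes. The call ended without control replicate 1, 2 or 3 (limma adjusted p up to 0.0804) and with the adipocyte covariate (0.0793), where the log2 fold change was -0.68.

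Slc22a5 encodes OCTN2, the membrane transporter that brings carnitine into the cell (chromosome 11, 53864542 to 53891796). It was a scarce transcript, at 10.6, 8.45 and 9.66 FPKM in the 3 control libraries. In CM-RevDKO replicates 1 to 3 it read 5.80, 4.47 and 5.16 FPKM, so the highest of these was below the lowest control. Slc22a5 fell by 46.2% in mean FPKM (log2 -0.78, SE 0.12, interval -1.07 to -0.49, adjusted p = 0.0236). Without control replicate 1 or 3, or without CM-RevDKO replicate 2 or 3, it did not pass (limma adjusted p up to 0.101), nor with the adipocyte covariate (0.114, log2 -0.83).

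Cd36 encodes the fatty acid translocase of the plasma membrane (chromosome 5, 17781690 to 17888959). Control replicates 1 to 3 gave 417, 357 and 362 FPKM and CM-RevDKO replicates 1 to 3 gave 256, 287 and 264 FPKM. The 2 groups were apart by more than the range within either. Cd36 fell by 29.0% in mean FPKM (log2 -0.49, SE 0.10, interval -0.72 to -0.27, adjusted p = 0.0471). This call stood close to the threshold. It ended with any 1 library left out (limma adjusted p of 0.0824 to 0.155). In separate fits of all 6 libraries it ended when they were scaled without mitochondrially encoded genes (limma adjusted p = 0.0559). It also ended without the eBayes trend, limma's tie of spread to level (0.0899), and with the adipocyte covariate (0.180, log2 -0.50). Cd36 is also made by endothelial cells, adipocytes and macrophages. Summed over 8 measured adipocyte markers the level was 33.6 to 44.5 FPKM in the control libraries and 140, 84.7 and 36.4 FPKM in CM-RevDKO replicates 1, 2 and 3, with none of the 8 past the test (limma; 4 were higher at an unadjusted p under 0.05). Summed endothelial markers were at 184 to 223 FPKM in the control and 207 to 246 FPKM in the CM-RevDKO libraries, with 0 of 6 past the test, and macrophage markers at 122 to 137 and 114 to 189 FPKM, with 0 of 5 past it; at an unadjusted p under 0.05 limma also gave 0 of 6 and 0 of 5.

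The RefSeq promoter windows of these 3 genes (GRCm38.p6, which is mm10; 250 bases before the start and 50 after) are shown because they are where a shared element could be read. Windows were found for 30 of the 37 genes. Capitals mark AGGTCA, the nuclear receptor element read on either strand, in Cd36 (chr5:17835847-17836146, minus strand), Ech1 (chr7:28825088-28825387, plus strand) and Slc22a5 (chr11:53891654-53891953, minus strand). For Acadvl (chr11:70015379-70015678, minus strand) they mark TAGGTCA, the core of a ROR element.
Cd36: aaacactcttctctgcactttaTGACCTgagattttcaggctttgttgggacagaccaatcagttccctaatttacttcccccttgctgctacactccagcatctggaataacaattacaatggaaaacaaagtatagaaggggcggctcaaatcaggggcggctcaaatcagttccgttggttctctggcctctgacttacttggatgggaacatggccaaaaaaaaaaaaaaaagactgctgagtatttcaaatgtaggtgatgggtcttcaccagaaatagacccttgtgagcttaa
Ech1: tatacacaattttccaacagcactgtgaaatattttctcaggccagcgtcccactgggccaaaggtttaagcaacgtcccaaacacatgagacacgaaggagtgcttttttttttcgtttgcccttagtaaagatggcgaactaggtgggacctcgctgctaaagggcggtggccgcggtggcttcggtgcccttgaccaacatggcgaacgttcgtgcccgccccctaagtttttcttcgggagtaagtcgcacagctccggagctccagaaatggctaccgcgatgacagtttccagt
Slc22a5: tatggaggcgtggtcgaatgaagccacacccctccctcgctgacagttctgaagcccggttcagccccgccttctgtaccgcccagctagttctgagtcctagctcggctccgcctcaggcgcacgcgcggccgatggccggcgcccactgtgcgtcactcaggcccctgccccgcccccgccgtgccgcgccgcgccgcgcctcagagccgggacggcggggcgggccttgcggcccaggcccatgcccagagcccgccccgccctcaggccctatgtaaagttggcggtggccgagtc
Acadvl: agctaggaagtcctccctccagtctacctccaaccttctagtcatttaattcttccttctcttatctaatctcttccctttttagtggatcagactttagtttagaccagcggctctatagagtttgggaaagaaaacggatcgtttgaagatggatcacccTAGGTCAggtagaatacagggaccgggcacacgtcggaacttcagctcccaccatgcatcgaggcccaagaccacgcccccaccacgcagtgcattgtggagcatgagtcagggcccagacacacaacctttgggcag
Cd36 held 1 match, with its first base at position -228 from the start site, and the windows of Ech1 and Slc22a5 held 0. The Cd36 window lies inside the annotated gene, whose span reaches further upstream, so other starts exist that it does not cover. AGGTCA, which is contained in TAGGTCA and in the ERR element TCAAGGTCA, was present in 7 of 30 windowed genes (23.3%; Acacb, Acadm, Acadvl, Cd36, Cpt1a, Echs1 and Ucp3), against 18.1% of 27025 genes with a window. The core TAGGTCA was present in 1 gene, Acadvl (3.33%, against 2.97%), and its G form TGGGTCA in Ehhadh and Slc27a1 (6.67%, against 4.57%). The ERR element and the D-box TTATGNAA matched 0 of 30 (against 0.466% and 3.99% of all genes), as did the palindromic D-box TTACGTAA (against 0.126%), and the E-box CACGTG matched Slc27a1 alone (3.33%, against 8.09%). Acadvl, with the TAGGTCA match at position -88, was among the genes whose level differed least between groups. These matches describe letters in short windows only.

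The other 3 uptake genes had overlapping groups. Fabp3, the heart fatty acid binding protein that carries fatty acids through the cytosol, was the most abundant of the 37, at 3480, 3658 and 3833 FPKM in the control and 4044, 3338 and 3007 FPKM in the CM-RevDKO libraries. The highest and the lowest value both belonged to CM-RevDKO, and the difference did not pass (log2 -0.088, interval -0.37 to 0.19, adjusted p = 0.772); a named pseudogene, Fabp3-ps1, could take some of its reads. Lpl, lipoprotein lipase, ran from 639 to 1340 FPKM within the control group alone and from 571 to 816 FPKM in the other, so its log2 fold change of -0.40 was within the spread (adjusted p = 0.507). Slc27a1, a fatty acid transport protein of the membrane, had means of 58.5 and 48.9 FPKM (adjusted p = 0.541). Across the 4 uptake genes the median log2 fold change was -0.32, with 1 of 4 past the test (1.24% of all genes were called lower).

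Activation and its reversal came next, with 0 of 4 genes past the limma test in either direction (2.5% of all genes passed). At an unadjusted p under 0.05 in limma, Acsl1 alone was lower (7.23% of all genes were). Acsl1, the main acyl-CoA synthetase of heart, read 195, 170 and 211 FPKM in control replicates 1 to 3 and 149, 136 and 142 FPKM in CM-RevDKO replicates 1 to 3. The groups did not overlap, at a log2 fold change of -0.42 (SE 0.10, interval -0.66 to -0.18), but the adjusted p was 0.0916; with quantile normalization it passed (adjusted p = 0.0361). Acot13, a mitochondrial thioesterase that splits acyl-CoA back to fatty acid, went the other way, at 256, 260 and 261 against 310, 283 and 284 FPKM (log2 0.17, adjusted p = 0.341). Its control values were the tightest of all 37 genes, with a coefficient of variation of 0.893%. Acot1 and Acot2, cytosolic and mitochondrial thioesterases, are close paralogs 15624 bases apart on chromosome 12, so their reads may be split uncertainly. Acot1 had means of 19.0 and 11.8 FPKM and Acot2 of 37.6 and 32.3 FPKM, each with overlapping groups (adjusted p = 0.308 and 0.592).

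In the carnitine shuttle 4 of 6 genes had lower, non-overlapping values (10.5% of all genes did), and Slc22a5 alone passed (1.24% of all genes were called lower). Slc25a20, the carnitine-acylcarnitine translocase of the inner membrane, was at 97.3, 94.0 and 101 FPKM in the control group and 79.3, 76.3 and 69.4 FPKM in CM-RevDKO. The log2 difference of -0.38 (SE 0.09, interval -0.58 to -0.17) had an adjusted p of 0.0830, and 0.0377 with quantile normalization. Cpt2, which regenerates acyl-CoA in the matrix, measured 65.7, 72.5 and 70.3 FPKM against 59.3, 58.5 and 54.0 FPKM (log2 -0.27, adjusted p = 0.172). The groups of both genes were apart, and neither gene passed.

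The entry enzyme CPT1 has a muscle and a liver form in heart. The muscle form Cpt1b was at 156, 160 and 137 FPKM and 123, 130 and 152 FPKM, with overlap (log2 -0.16, interval -0.42 to 0.10, adjusted p = 0.527). The liver form Cpt1a was scarcer, at 17.6, 12.8 and 14.3 FPKM in the control and 12.4, 7.46 and 7.93 FPKM in the CM-RevDKO libraries (log2 -0.65, SE 0.20, interval -1.11 to -0.19, adjusted p = 0.156). Leaving out CM-RevDKO replicate 1, the highest of its 3, took it past the test (adjusted p = 0.0463). The ratio of Cpt1a to Cpt1b within a library was 0.113, 0.0796 and 0.105 in the control group and 0.101, 0.0572 and 0.0520 in the other. Of the 3 ratios computed in this way, exact two-sided permutation tests gave p = 0.20 here (adjusted 0.30); with 3 against 3 no p can go below 0.10. Crat, the carnitine acetyltransferase that exports acetyl units, was among the 3 genes with higher, non-overlapping values (means of 95.1 and 108 FPKM, adjusted p = 0.384).

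CPT1 is inhibited by malonyl-CoA, which Acacb, the mitochondrial acetyl-CoA carboxylase ACC2, makes and Mlycd, malonyl-CoA decarboxylase, removes. Acacb was at 46.6, 52.0 and 40.8 FPKM in control replicates 1 to 3 and at 30.7, 29.4 and 34.8 FPKM in CM-RevDKO replicates 1 to 3. The groups did not overlap; the mean was 31.9% lower (log2 -0.54, SE 0.12, interval -0.81 to -0.26), and the adjusted p was 0.0697, or 0.0326 when scaled without mitochondrially encoded genes. Mlycd had 48.8, 45.4 and 46.9 FPKM against 51.1, 38.3 and 40.6 FPKM, with overlap (log2 -0.13, adjusted p = 0.654). The ratio of Acacb to Mlycd was 0.955, 1.14 and 0.868 in the control libraries and 0.602, 0.767 and 0.858 in the others, without overlap (exact two-sided permutation p = 0.10, the smallest that 3 against 3 allows; adjusted 0.30).

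**Figure D2:**
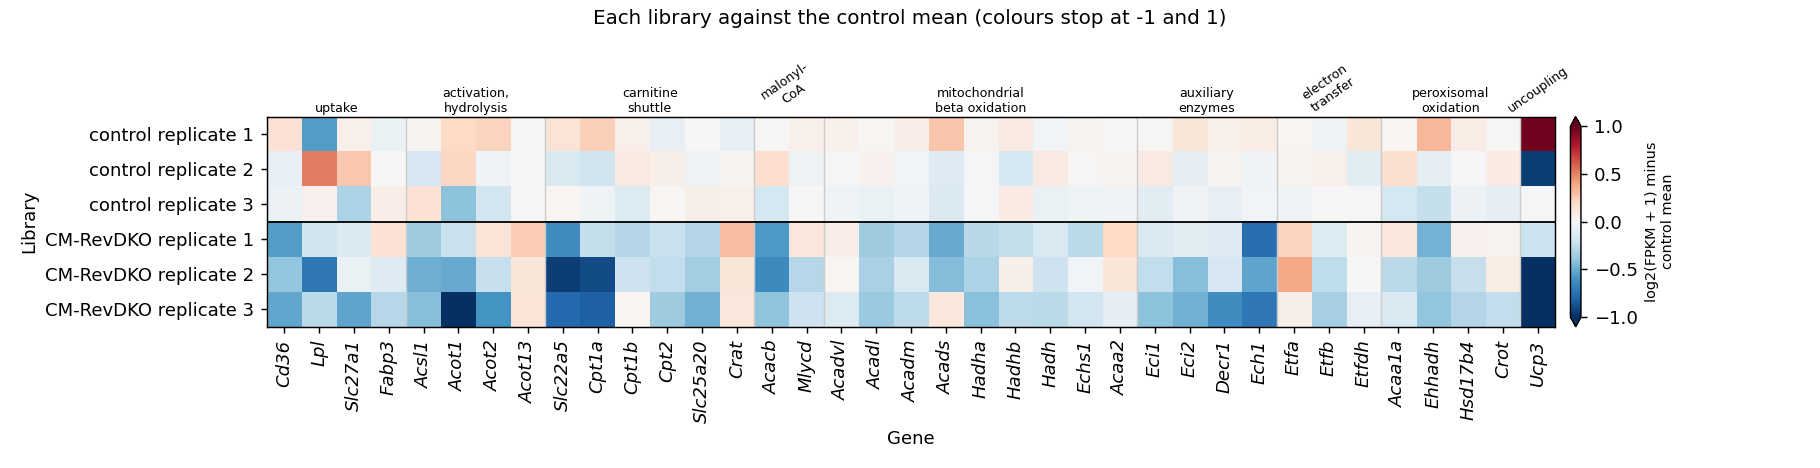
Colour shows log2(FPKM + 1) minus the control mean for each gene (columns, by step) in each library (rows); blue is below the control mean, red above, and colours stop at -1 and 1. Blue runs through most columns of the 3 CM-RevDKO rows, with Etfa, Acot13 and Crat red in all 3, and Ucp3 and Lpl vary strongly within the control rows.

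None of the 9 genes of the mitochondrial beta oxidation spiral passed the test (2.5% of all genes did). At an unadjusted p under 0.05 in limma, Acadl, Acadm, Hadha and Hadh were lower (7.23% of all genes were). The log2 fold change lay below 0 for 8 of 9 (46.3% of all genes), with a median of -0.21. The acyl-CoA dehydrogenases, which take the first 2 hydrogens from chains of different length, differed among themselves. Acadl, for long chains, was at 437, 444 and 411 FPKM and at 337, 343 and 333 FPKM, groups far apart for their narrow spread (log2 -0.35, SE 0.08, interval -0.53 to -0.17, adjusted p = 0.0705, and 0.0356 with quantile normalization). Acadm, for medium chains, was at 478, 447 and 444 FPKM and at 371, 410 and 380 FPKM, again without overlap (log2 -0.24, interval -0.43 to -0.04, adjusted p = 0.210). Acadvl, for very long chains, had means of 376 and 372 FPKM, with overlapping groups and an interval of -0.22 to 0.19 (adjusted p = 0.957). Acads, for short chains, had means of 59.2 and 49.1 FPKM with overlap (adjusted p = 0.513).

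Hadha and Hadhb encode the 2 subunits of the trifunctional protein, which finishes the cycle for long chains. They stand head to head on chromosome 5 with 272 bases between them, and their promoter windows share 228 bases. The Hadha window (chr5:30154931-30155230, minus strand, GRCm38.p6) is printed with the stretch that it shares with the Hadhb window (chr5:30155003-30155302, plus strand) in capitals, because the start regions of the pair adjoin.
Hadha: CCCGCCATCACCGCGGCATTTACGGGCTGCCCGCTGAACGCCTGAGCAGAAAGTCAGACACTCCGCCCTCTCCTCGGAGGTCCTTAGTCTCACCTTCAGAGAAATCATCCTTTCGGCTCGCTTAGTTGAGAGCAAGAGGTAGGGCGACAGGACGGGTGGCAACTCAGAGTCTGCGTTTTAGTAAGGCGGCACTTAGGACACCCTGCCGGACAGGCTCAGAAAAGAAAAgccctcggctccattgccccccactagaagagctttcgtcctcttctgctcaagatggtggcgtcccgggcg
Hadha was at 349, 338 and 336 FPKM in the control and at 281, 275 and 256 FPKM in the CM-RevDKO libraries (log2 -0.34, SE 0.08, interval -0.52 to -0.15, adjusted p = 0.0847, and 0.0280 with quantile normalization). Hadhb was at 550, 459 and 548 FPKM and at 438, 540 and 430 FPKM (log2 -0.15, interval -0.44 to 0.14, adjusted p = 0.600). The groups of Hadha did not overlap and those of Hadhb did. The ratio of Hadha to Hadhb ran from 0.613 to 0.738 in the control and from 0.508 to 0.642 in the other group, and its difference was within the spread (exact two-sided permutation p = 0.30, adjusted 0.30). A named pseudogene, Hadhb-ps, could share reads with Hadhb. Of the last 3 enzymes of the spiral, Hadh had means of 296 and 256 FPKM, Echs1 of 176 and 158 FPKM and Acaa2 of 509 and 537 FPKM (adjusted p = 0.275, 0.425 and 0.768).

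The 4 auxiliary enzymes, which reshape double bonds of unsaturated chains, were the step in which every gene had lower values without overlap, as 10.5% of all genes did: Ech1, Eci1, Eci2 and Decr1. Their summed level was 1434, 1360 and 1327 FPKM in the control group and 959, 1018 and 883 FPKM in CM-RevDKO. Ech1 alone passed and made up most of that sum. Eci2, an enoyl-CoA isomerase found in mitochondria and peroxisomes, was at 89.6, 77.7 and 80.6 FPKM and at 76.6, 61.1 and 58.9 FPKM (log2 -0.34, interval -0.62 to -0.05, adjusted p = 0.225). The gap between its groups was narrow, from 76.6 to 77.7 FPKM. Eci1, the mitochondrial isomerase, had means of 239 and 198 FPKM (adjusted p = 0.244). Decr1, the dienoyl-CoA reductase, had means of 138 and 112 FPKM, with CM-RevDKO replicate 3 lowest at 89.0 FPKM (adjusted p = 0.335).

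The electron transfer flavoprotein hands electrons from the dehydrogenases to ubiquinone, and its subunits went opposite ways without passing. Etfb was at 566, 604 and 581 FPKM in the control libraries and at 530, 489 and 462 FPKM in the others (log2 -0.24, interval -0.44 to -0.04, adjusted p = 0.217). Its partner Etfa was higher in all 3 CM-RevDKO libraries, with means of 394 and 463 FPKM (log2 0.22, interval -0.02 to 0.47, adjusted p = 0.333). Etfdh, the oxidoreductase that receives the electrons, had means of 210 and 208 FPKM (interval -0.23 to 0.20, adjusted p = 0.958).

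Peroxisomal genes were low in level, with 0 of 4 past the limma test (2.5% of all genes passed) and a median log2 fold change of -0.13. At an unadjusted p under 0.05 in limma, Ehhadh alone was lower (7.23% of all genes were). Hsd17b4, the D-bifunctional protein and the highest of the 4, was at 36.4, 34.0 and 33.1 FPKM and at 35.5, 29.3 and 28.0 FPKM (adjusted p = 0.527). Ehhadh, the L-bifunctional enzyme, was the scarcest of the 37 genes, with 5.68, 3.99 and 3.50 FPKM against 2.83, 3.16 and 3.04 FPKM (log2 -0.41, interval -0.78 to -0.04, adjusted p = 0.258). Its groups did not overlap, but control replicate 1 stood above the other 2 controls. Acaa1a, a thiolase, had means of 28.2 and 26.1 FPKM and Crot, which hands shortened chains to carnitine, of 13.1 and 12.7 FPKM (adjusted p = 0.748 and 0.888).

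Ucp3, a mitochondrial carrier related to uncoupling protein that responds to fatty acid supply, had the lowest log2 fold change of the 37, -1.14, and also the widest interval, -2.41 to 0.14 (adjusted p = 0.354). Control replicates 1 to 3 gave 34.0, 8.35 and 16.7 FPKM, and CM-RevDKO replicates 1 to 3 gave 14.5, 3.78 and 6.36 FPKM. The control coefficient of variation, 66.4%, was the highest of the 37 genes, whereas 24 of the 37 were under 10% and the median was 6.52%, against 9.84% for all genes tested at or above the mean level of Ehhadh, the scarcest of the 37.

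**Figure D3:**
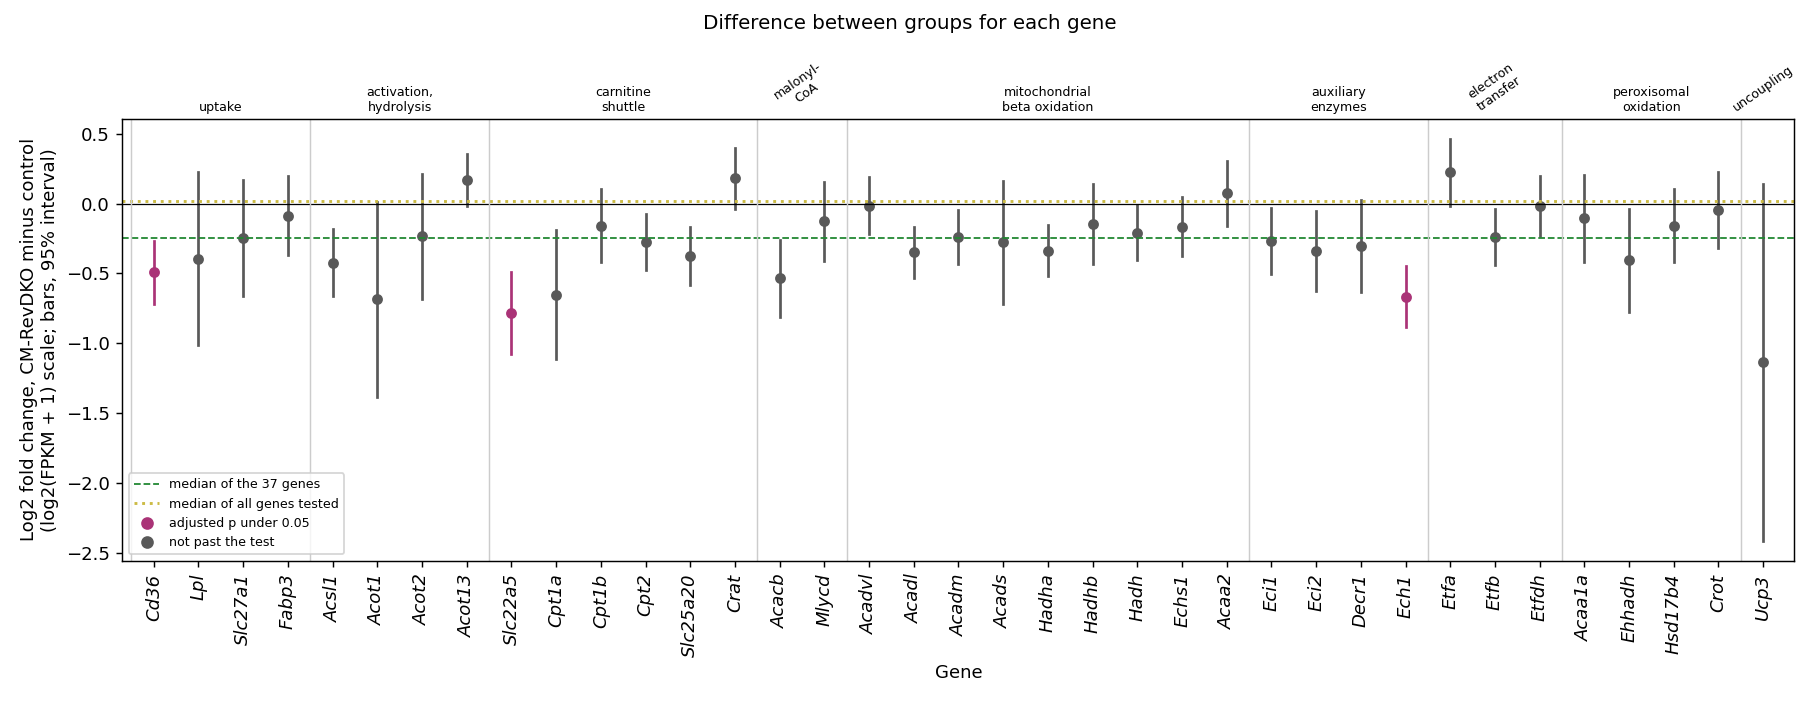
Log2 fold change (CM-RevDKO minus control, log2(FPKM + 1) scale) of each gene with its 95% interval, by step; purple marks adjusted p under 0.05, the green dashed line the median of the 37 genes (-0.25) and the yellow dotted line that of all genes tested (0.018). The intervals of 16 genes lie below 0 and none lies above it, against 7.23% and 9.41% of all genes.

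The libraries of a group did not differ alike. Against the control mean, 25, 29 and 32 of the 37 genes were lower in CM-RevDKO replicates 1, 2 and 3, and the median deviation was -0.20, -0.25 and -0.33 on the log2 scale; over all genes it was 0.062, -0.014 and 0.0052. CM-RevDKO replicate 3 held the lowest of the 6 values for 18 of the 37 genes and control replicate 1 the highest for 16. As a share of all FPKM outside mitochondrially encoded genes, the 37 genes took 2.86%, 2.88% and 2.93% in the control libraries and 2.58%, 2.52% and 2.16% in the others, and without Fabp3 2.00%, 2.02% and 1.99% against 1.66%, 1.71% and 1.49%. Both shares were lower in every CM-RevDKO library.

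Marker levels of some other cell types differed between these libraries. The endothelial, fibroblast and macrophage lists held 0 genes past the test, and 0 at an unadjusted p under 0.05 (limma). Blood cell markers summed to 3135 to 5696 FPKM in the control and to 5344 to 7193 FPKM in the CM-RevDKO libraries. Of 4 tested 0 passed, and limma gave 0 lower and 1 higher at an unadjusted p under 0.05. Skeletal muscle markers summed to 1117 to 1268 and to 1179 to 1384 FPKM, with 0 of 2 past the test. The adipocyte sum, given with Cd36, was high in CM-RevDKO replicates 1 and 2. Of the 8 markers 2, Cidea and Adig, had a log2 fold change below 0. Cidea was at 17.7 to 20.6 FPKM in the control libraries and at 24.4, 14.4 and 16.4 FPKM in CM-RevDKO replicates 1 to 3. Adig was at 0.753 to 1.30 FPKM in the control libraries, at 1.26 and 0.336 FPKM in CM-RevDKO replicates 1 and 2, and listed at 0 in replicate 3. CM-RevDKO replicate 3, whose adipocyte sum lay within the control range, had the lowest median deviation of the 37 genes, -0.33. This is 1 library, and a link of that deviation with adipocyte content was not tested. Atrial markers summed to 199 to 289 FPKM and to 763 to 1488 FPKM, most of it Nppa, with Nppa alone of 5 tested past the test (higher; limma, 4 at an unadjusted p under 0.05) and Bmp10 listed at 0 in 5 of 6 libraries. A list of 10 liver genes, chosen after control replicate 2 was seen to hold liver transcripts, summed to 267 FPKM in that library, with Alb at 100 FPKM, and to 4.21 to 38.2 FPKM in the other 5. The part of atrial, blood and liver transcripts in the results was not tested.  Without control replicate 2 the median log2 fold change of the 37 genes was -0.23 and Slc22a5 alone passed; Ech1 then had an adjusted p of 0.0542.

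**Figure D4:**
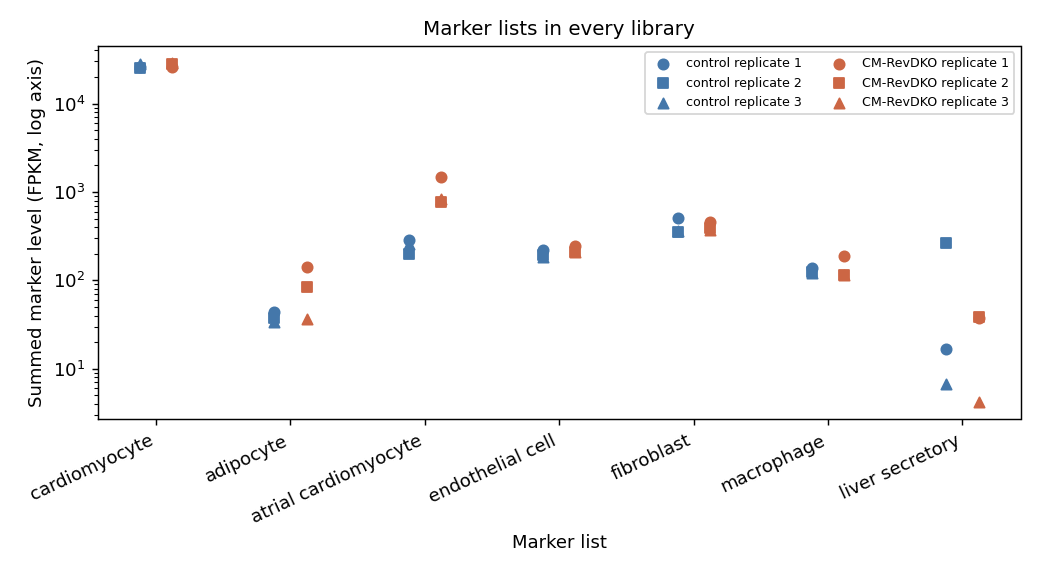
Summed FPKM (log axis) of marker lists in the 3 control (blue) and 3 CM-RevDKO (orange) libraries. Shapes are replicates 1 to 3. The blood cell and skeletal muscle lists are not shown. The adipocyte sum is high in CM-RevDKO replicates 1 and 2, the atrial sum in all 3, and the liver sum in control replicate 2.

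Beyond the 37, 62 further genes of the same pathways were measured and 60 tested: 3 fell and 0 rose, against 1.24% and 1.26% of all genes. At an unadjusted p under 0.05 limma gave 10 lower and 5 higher (7.23% and 9.41% of all genes). The log2 fold change was below 0 for 37 of the 60 (46.3% of all genes), and the median was -0.036. Nudt7, a peroxisomal hydrolase of coenzyme A, was at 37.2, 34.3 and 36.3 FPKM and at 24.7, 20.4 and 18.2 FPKM (log2 -0.75, SE 0.12, adjusted p = 0.0261). Acss1, the mitochondrial acetyl-CoA synthetase, was at 108, 115 and 98.0 FPKM and at 70.5, 79.6 and 66.9 FPKM (log2 -0.56, SE 0.10, adjusted p = 0.0410). The groups overlapped for neither gene. Acss1 did not pass with any 1 library left out (limma adjusted p up to 0.143) or with the adipocyte covariate (0.126), and Nudt7 did not without CM-RevDKO replicate 2 or any 1 control library (up to 0.111).

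In the lists with no gene past the test, the smallest p-values belonged to genes on both sides. Dbi, the acyl-CoA binding protein, had means of 139 and 212 FPKM (adjusted p = 0.0722) and Vldlr, a lipoprotein receptor, of 53.2 and 34.7 FPKM (adjusted p = 0.119). Aldh9a1, an enzyme of carnitine synthesis, had means of 11.5 and 6.71 FPKM (adjusted p = 0.0546) and the carrier gene Slc25a29 of 5.02 and 3.51 FPKM (adjusted p = 0.338). Nudt19 had means of 19.6 and 23.7 FPKM and Hsd17b10, a mitochondrial oxidation gene, of 126 and 112 FPKM (limma adjusted p = 0.225 and 0.357). Of 13 tested genes known as PPAR targets outside the pathway, 2 fell and 0 rose (1.24% and 1.26% of all genes), with a median of -0.18; limma gave 3 lower and 3 higher at an unadjusted p under 0.05 (7.23% and 9.41% of all genes). They were Plin4, a lipid droplet coat protein, from 32.7 ± 2.07 to 21.1 ± 2.61 FPKM (SD, n = 3, limma adjusted p = 0.0396), and Slc25a34, a mitochondrial carrier, from 87.3 ± 7.18 to 55.1 ± 5.69 FPKM (SD, n = 3, limma adjusted p = 0.0283). Each lost its call in 5 of the 6 fits with 1 library left out (adjusted p up to 0.140 and 0.116); Plin4 kept it without CM-RevDKO replicate 3 alone, and Slc25a34 without CM-RevDKO replicate 1 alone. Plin4 also lost it with the adipocyte covariate (0.204).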

How the data were processed

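Alignment tools and build come from the submitters' processing notes, which list HISAT2, StringTie and mm10. The sources used here do not give versions, annotation or strandedness. A single deposited table holds 1 value per gene and library, read as FPKM made by the authors; its header names no unit and TPM was not excluded (sums of 678722 to 712158 per library). Depth could not be recovered: of the 1076 to 1168 low genes compared in each of 15 library pairs, no more than 3 had the same log2 ratio (4 decimals). Group and replicate number in the column names tied all 6 columns to their samples.

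Genes averaging 0.5 FPKM or more were fitted on log2(FPKM + 1) with limma 3.58.1 in R 4.3.3 (eBayes with trend, two-sided, group as the only term); this scale understates changes of low genes. The procedure was tested on simulated data with log2 changes of 1 and 2 in size. This does not show how well smaller changes, as in most members, are found. The members and lists were chosen with earlier results of these data known. Values in every library are given for members past the test, the 10 next by p and the highest of each of 9 steps; other values shown were added. From other lists, genes past the test or the 2 smallest p are named, except 1 gene that is not reported here. Coordinates and promoters come from RefSeq (GRCm38.p6), matched by symbol. Protein-coding neighbours overlap 5 members (Fabp3, Crat, Echs1, Etfb and Etfdh), whose reads may be shared. In all 16 alternative settings were run.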

Additional observations from a re-analysis of the deposited data

How the results depend on the processing

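The median log2 fold change of the 37 genes stayed below 0 in all 16 alternatives. It was -0.33 with quantile normalization, -0.31 when scaled without mitochondrially encoded genes, -0.32 with the adipocyte markers as a covariate and -0.33 without CM-RevDKO replicates 1 and 2 (an alternative chosen after seeing the data that leaves 1 such library, assumed to vary like the controls); with 1 library left out it ran from -0.32 to -0.20. The count of 3 lower genes became 7 with quantile normalization (Acadl, Acsl1, Hadha and Slc25a20 added). It became 0 with the covariate, without CM-RevDKO replicates 1 and 2, and without control replicate 2 and CM-RevDKO replicate 1, where limma gave 18, 17 and 16 lower at an unadjusted p under 0.05, and ran from 0 to 3 with 1 library left out (11 to 20 unadjusted). Over all genes the fits with 1 library left out called 47 to 134 lower in place of 165, with fewer samples. The covariate fit called 47 lower and quantile normalization 175. Without control replicate 2 and CM-RevDKO replicate 1, 35 of all genes were called lower. The fit without CM-RevDKO replicates 1 and 2 called 11. The 3 lower genes outside the 37 became 0 without CM-RevDKO replicates 1 and 2, 1 without control replicate 2 and CM-RevDKO replicate 1, 1 without the eBayes trend, and 0 to 1 with 1 library left out. Without the trend Cd36 lost its call too. With the replicate number as a block the median was -0.25, 2 of the 37 were lower (Slc22a5 and Ucp3, the latter at adjusted p = 0.0263, with Ech1 at 0.0742 and Cd36 at 0.147) and 0 of the others; over all genes 46 were lower and 69 higher. The numbers are not shown to pair the samples: deviations of same-numbered libraries correlated at -0.037, -0.064 and 0.093, and the highest of all 9 pairs, 0.11, joined control replicate 2 with CM-RevDKO replicate 1. Of the 37 genes 7 changed sign somewhere, from reported values of -0.28 (Acads), -0.16 (Cpt1b), -0.088 (Fabp3), -0.047 (Crot), -0.016 (Etfdh and Acadvl) and 0.073 (Acaa2): Fabp3 (0.15) and Acaa2 (-0.047) with quantile normalization; Acaa2 (-0.071) with the covariate; Cpt1b (0.017), Acads (0.10) and Acaa2 (-0.10) without CM-RevDKO replicates 1 and 2; Fabp3, Acadvl, Etfdh and Crot without CM-RevDKO replicate 3; Acadvl and Etfdh without control replicate 1. With 1 library, or control replicate 2 and CM-RevDKO replicate 1, left out, Fabp3, Acadvl, Etfdh and Crot ran from -0.206 to 0.0079, -0.065 to 0.044, -0.094 to 0.045 and -0.106 to 0.054; without CM-RevDKO replicates 1 and 2 they were at -0.281, -0.135, -0.083 and -0.249. None of these passed the test, and the cause was not tested. With unknown depth, no counting error can be given.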
